A study of Homo sapiens with 6 samples.

Results

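The heat shock chaperones, most of them of the cytosol and the mitochondrion, were followed in HCT116 cells, a human colon cancer line, with and without overexpression of cytoglobin (CYGB), a heme protein that binds oxygen. The genes were taken by name from the deposited table, in which 41 chaperone symbols correspond to 42 gene identifiers, because HSPA14 is listed under 2 overlapping identifiers. All 42 passed the filter on low counts. The table holds 40173 genes, of which 19987 were tested. In the control group, named MOCK, cells received a MOCK lentivirus, and in the CYGB group a lentivirus with the coding region of CYGB fused to a FLAG tag. Both groups were selected with puromycin to obtain stable lines, cells were at passage 15 to 20, and each group has 3 libraries, described by the submitters as biological replicates. Whether the replicates of a group came from separate transductions is not given in the sources used here, and if they did not, an effect of CYGB and a difference between selected populations cannot be told apart.

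Heat shock proteins bind unfolded or partly folded proteins and help them to reach or regain their native structure. HSP70 proteins bind short exposed stretches with the help of J-domain proteins, which stimulate their ATPase, and of nucleotide exchange factors such as the BAG and HSP110 proteins. HSP90 completes the folding of kinases and steroid receptors, while the ring-shaped TRiC and HSP60 complexes enclose their substrates. The transcription factor HSF1 induces many of these genes when unfolded proteins accumulate, by binding heat shock elements, which are repeats of the unit GAA in alternating orientation. Cancer cell lines commonly express these genes at a high level without a heat shock.

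The values are counts per transcript that were summed per gene. Counts of transcripts with a gene ranged from 47193496 to 53531777 per library. The labels were checked with CYGB itself, whose count was 10, 28 and 34 in MOCK libraries, compared with 34935, 27681 and 32333 after the CYGB virus. Of the epithelial markers, EPCAM, CDH1, KRT8, KRT18, KRT19 and CDX2 were at 14.9 CPM (counts scaled to a common library size) or more in every library, whereas VIL1 and CLDN4 did not exceed 1.65 CPM. Of 11 markers of fibroblasts, leukocytes and endothelium, COL1A1 (44.3 to 53.8 CPM) and CD68 (9.90 to 25.3 CPM) were expressed, and the others did not exceed 1.89 CPM. In RNA of whole cultures, fewer cells of a type and less RNA per cell cannot be told apart.

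No chaperone gene passed a test of the difference between CYGB and MOCK cells. The study's methods call a gene when p does not exceed 0.01 and expression is changed at least 2 times up, or down to 0.5 times or less. This threshold was passed by 0 of the 42 genes, against 0.565% of all genes tested, split into 0.28% higher and 0.285% lower ones. P-values are from the quasi-likelihood test of edgeR, and adjusted ones follow Benjamini and Hochberg over all genes tested. By this test 0 chaperones had an adjusted p under 0.05 (0.055% of all genes) and 0 had an unadjusted p under 0.05 (4.54% of all genes). DESeq2 and edgeR's exact test gave 0 by each of these rules as well. The smallest unadjusted p was 0.134, for HSPB11, and the smallest adjusted p was 0.963. Without CYGB replicate 3, 1 of the 2 HSPA14 identifiers passed the threshold, where 130 of all genes did. Chaperones with an unadjusted p under 0.05 numbered 3, 2 and 2 without CYGB replicates 1, 2 and 3. They are given below by name. The share of all genes with such a p was not counted in those fits. In the fit of all 6 libraries it was 4.54%.

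The intervals of the fold changes give the precision behind these counts. The 95% interval of the log2 fold change lay inside -1 to 1 for 36 of the 42 genes (85.7%), against 56% of all genes, and inside -0.5 to 0.5 for 25 of them (59.5%), against 27.5%. The 6 with wider intervals were HSF2, HSPA1A, HSPA1B, HSP90AA1, FKBP4 and HSPA14 (ENSG00000284024). Log2 fold changes ranged from -0.53 for HSP90AA1 to 0.40 for FKBP4, with a median of 0.03 (-0.01 over all genes). They were above 0 for 25 genes (59.5%, against 48.8% of all genes) and below 0 for 17. The chaperones are abundant, with a median of 228 CPM against 9.78 CPM over all genes. Their median standard error on the log2 scale was 0.14, against 0.26 over all genes.

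**Figure D1:**
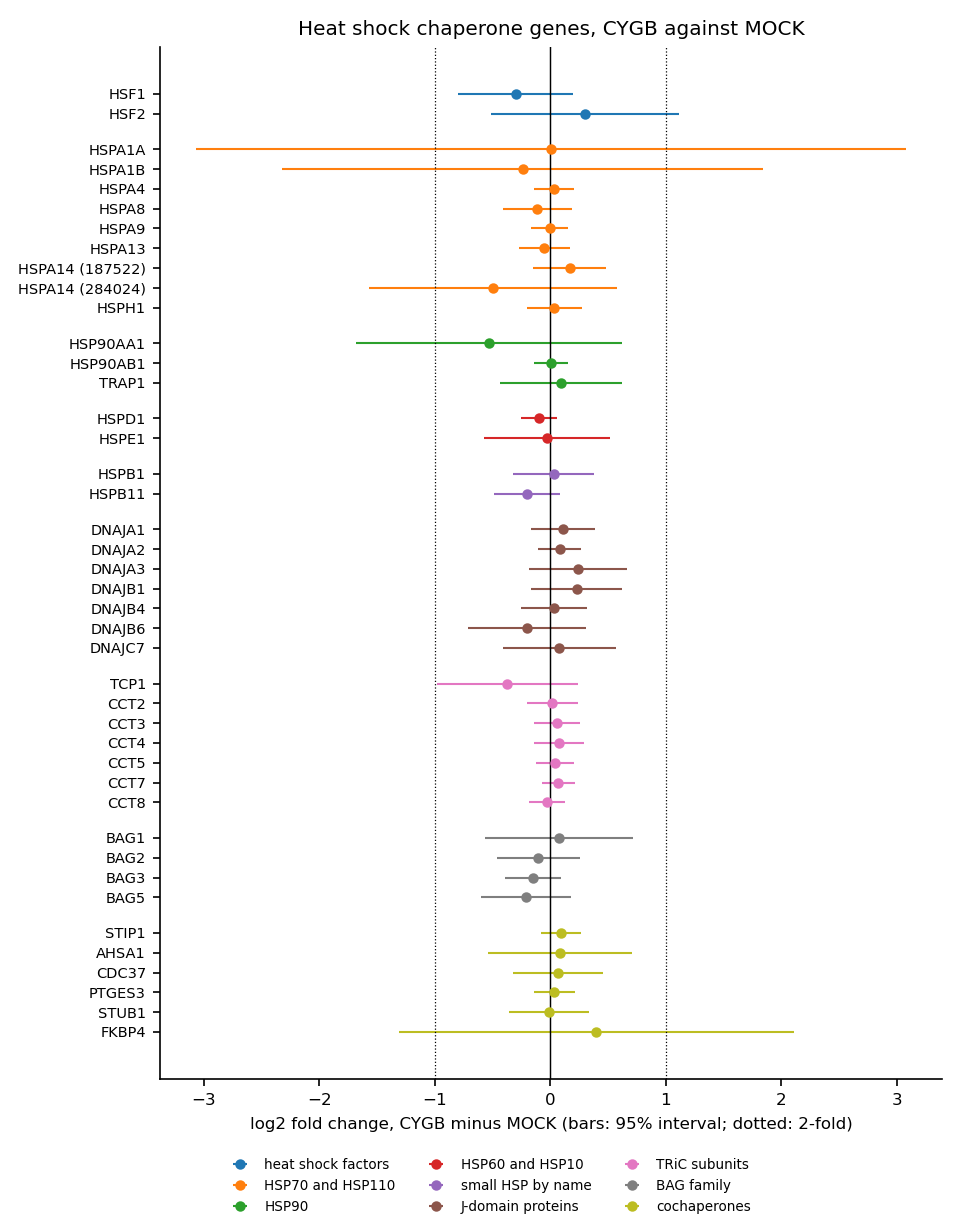
Log2 fold change of each of the 42 chaperone genes, CYGB minus MOCK, grouped by role, with points at the estimate of edgeR's quasi-likelihood fit and bars for the 95% interval. Dotted lines mark 2-fold, every interval crosses 0, and the intervals of HSPA1A, HSPA1B, HSP90AA1, FKBP4, HSF2 and the HSPA14 identifier ENSG00000284024 cross a dotted line.

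Together the 42 genes held 2.07%, 2.08% and 2.13% of gene counts in MOCK replicates 1 to 3. In CYGB replicates 1 to 3 they held 2.16%, 1.72% and 2.03%. CYGB replicate 2 was the lowest, and HSP90AA1, described below, was also lowest there.

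Heat shock elements were searched in the RefSeq promoter windows (GRCh38.p14, 250 bases before each start), where 36 of the 41 symbols had at least 1 window. The element was taken as GAANNTTCNNGAA or TTCNNGAANNTTC, which are each other's reverse complement, so that either form covers both strands. It was present in 155 of 35116 windows of all genes (0.441%) and in 5 of 50 windows of the chaperones (10%). The 5 genes were HSPD1, HSP90AB1, DNAJB6, HSPA8 and HSP90AA1. The matches are shown because these are the binding sequences by which the class is known, with the element in capitals and read on the strand of the gene.
HSPD1, chr2:197500062-197500090, minus strand: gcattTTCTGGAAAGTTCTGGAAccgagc
HSP90AB1, chr6:44247770-44247798, plus strand: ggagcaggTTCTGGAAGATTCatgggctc
HSP90AB1, chr6:44247823-44247851, plus strand: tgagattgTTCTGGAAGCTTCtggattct
DNAJB6, chr7:157336865-157336893, plus strand: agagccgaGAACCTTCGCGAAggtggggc
HSPA8, chr11:123062346-123062374, minus strand: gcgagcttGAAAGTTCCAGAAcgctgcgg
HSPA8, chr11:123062171-123062199, minus strand: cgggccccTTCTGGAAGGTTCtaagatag
HSP90AA1, chr14:102087112-102087140, minus strand: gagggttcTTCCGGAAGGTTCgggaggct

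The HSPD1 stretch holds 2 overlapping matches, 227 bases before the RefSeq start. It lies on chromosome 2 between the divergent HSPD1 and HSPE1 promoters, inside an annotated exon of each gene. The HSP90AA1 element lies 75 bases before the RefSeq start of the shorter of its main transcripts, and inside an exon of the annotated transcript ENST00000216281. Both HSPA8 matches also lie inside exons of annotated HSPA8 transcripts. For the match nearer the RefSeq start, ENST00000534624 is among these transcripts. The shorter form with the units in a single pair (GAANNTTC or TTCNNGAA, which includes all of the above) was in 11.6% of all windows and in 14 of 50 chaperone windows (28%). The genes with the longer element had log2 fold changes of -0.10 (HSPD1), 0.01 (HSP90AB1), -0.20 (DNAJB6), -0.11 (HSPA8) and -0.53 (HSP90AA1). Of those with only the shorter form, CCT2 (0.02), DNAJA1 (0.11), DNAJB1 (0.23), DNAJB4 (0.03), HSPA1A (0.01) and HSPB1 (0.03) lay above 0. BAG2 (-0.10), HSPA1B (-0.24) and TCP1 (-0.37) lay below 0. None of these passed the test, and binding of HSF1 was not measured.

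HSF1, the main activator of the heat shock response, had 54.0, 64.3 and 47.9 CPM in MOCK replicates 1 to 3 and 39.1, 38.3 and 57.6 CPM in CYGB replicates 1 to 3. The ranges overlapped through CYGB replicate 3. On the log2 scale the fold change was -0.30 (standard error, SE, 0.20, edgeR adjusted p = 0.963). Without CYGB replicate 3 it was -0.51 (edgeR unadjusted p = 0.0232, adjusted p = 0.977). HSF2, a related factor that can form trimers with HSF1, had 16.9, 10.1 and 11.7 CPM in MOCK and 20.0, 18.0 and 9.58 CPM in CYGB cells. Its log2 fold change was 0.30 (SE 0.33, edgeR adjusted p = 0.964), and CYGB replicate 3 was the lowest of all 6 libraries. With 1 library left out it ran from 0.10 (without CYGB replicate 1) to 0.57 (without CYGB replicate 3, edgeR unadjusted p = 0.0788).

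HSPA1A and HSPA1B encode the stress-inducible HSP70 and lie on the plus strand of chromosome 6 of GRCh38, from 31815464 to 31817946 and from 31827735 to 31830255. Their coding sequences of 1923 bases differ at 4 positions (99.8% identical). The stretches upstream are printed to show how alike the copies are, with the 8-base pair of heat shock units in capitals.
HSPA1A, chr6:31815293-31815463, plus strand: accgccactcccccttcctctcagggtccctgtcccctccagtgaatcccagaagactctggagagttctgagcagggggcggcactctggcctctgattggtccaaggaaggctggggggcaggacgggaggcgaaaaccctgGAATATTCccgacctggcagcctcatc
HSPA1B, chr6:31827488-31827658, plus strand: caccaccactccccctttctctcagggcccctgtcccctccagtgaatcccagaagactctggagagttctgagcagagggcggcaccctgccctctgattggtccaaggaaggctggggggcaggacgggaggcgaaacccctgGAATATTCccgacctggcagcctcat
Of the 171 bases, 163 were identical, with 7 mismatches and 2 gaps in the alignment. Only 32.9% of the 150-base windows of the HSPA1A transcript, the length of 1 read, are absent from HSPA1B, and 34% of those of HSPA1B are absent from HSPA1A, so how reads were divided between the copies is uncertain.

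The table gave nearly all counts of the pair to HSPA1B. HSPA1A had 104, 40 and 17 counts in MOCK libraries, compared with 8, 151 and 9 in CYGB cells. HSPA1B had 16310, 18003 and 16532 counts in MOCK libraries, compared with 23704, 1405 and 18734 in CYGB cells. In CPM, HSPA1B stood at 345, 341 and 321 in MOCK and at 469, 27.7 and 357 in CYGB cells, so that CYGB replicate 2 was far below the other 5 libraries while the other 2 CYGB libraries were above all MOCK libraries. HSPA1A was highest in the same CYGB replicate 2, but its 151 counts there are few beside the HSPA1B counts of the other libraries, and the summed counts of the pair were 1556 in that library against 16414 to 23712 in the others. HSPA1B had a log2 fold change of -0.24 (SE 0.85, edgeR adjusted p = 0.992). Without CYGB replicate 2 it was 0.29 (edgeR unadjusted p = 0.0746, adjusted p = 0.936). That of HSPA1A was 0.01 (SE 1.26, edgeR adjusted p = 1.00), and -2.72 without CYGB replicate 2 (edgeR unadjusted p = 0.0346, adjusted p = 0.936).

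HSPA8, the constitutive HSC70 that also takes part in clathrin uncoating and chaperone-mediated autophagy, had 1123, 1162 and 1214 CPM in MOCK and 1262, 915 and 1061 CPM in CYGB cells. CYGB replicate 1 was the highest library and CYGB replicate 2 the lowest, so the groups overlapped. Its log2 fold change was -0.11 (SE 0.12, edgeR adjusted p = 0.964), and -0.24 without CYGB replicate 1 (edgeR unadjusted p = 0.0417, adjusted p = 0.962). The mitochondrial HSP70, HSPA9, had a log2 fold change of -0.01 (95% interval -0.16 to 0.15). The HSP110 proteins HSPA4 and HSPH1, which exchange the nucleotide of HSP70, had log2 fold changes of 0.03 and 0.04. HSPA13, an HSP70-like ATPase of microsomes, had -0.05.

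HSPA14, a ribosome-associated HSP70-like protein, is listed under ENSG00000187522 (chromosome 10, 14838164 to 14871741) and ENSG00000284024 (14838160 to 14847018), both on the plus strand. The first had 24.6, 26.2 and 27.1 CPM in MOCK and 30.3, 31.8 and 25.2 CPM in CYGB cells. The second had 22.2, 35.4 and 33.0 CPM in MOCK and 14.0, 13.5 and 36.8 CPM in CYGB cells. Their log2 fold changes were 0.17 (edgeR adjusted p = 0.963) and -0.49 (edgeR adjusted p = 0.963). Without CYGB replicate 3 the second was at -1.13 (edgeR unadjusted p = 0.0056, adjusted p = 0.914) and passed the threshold of the methods. Since the 2 overlap on the same strand, reads of the shared stretch could have been assigned to either.

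**Figure D2:**
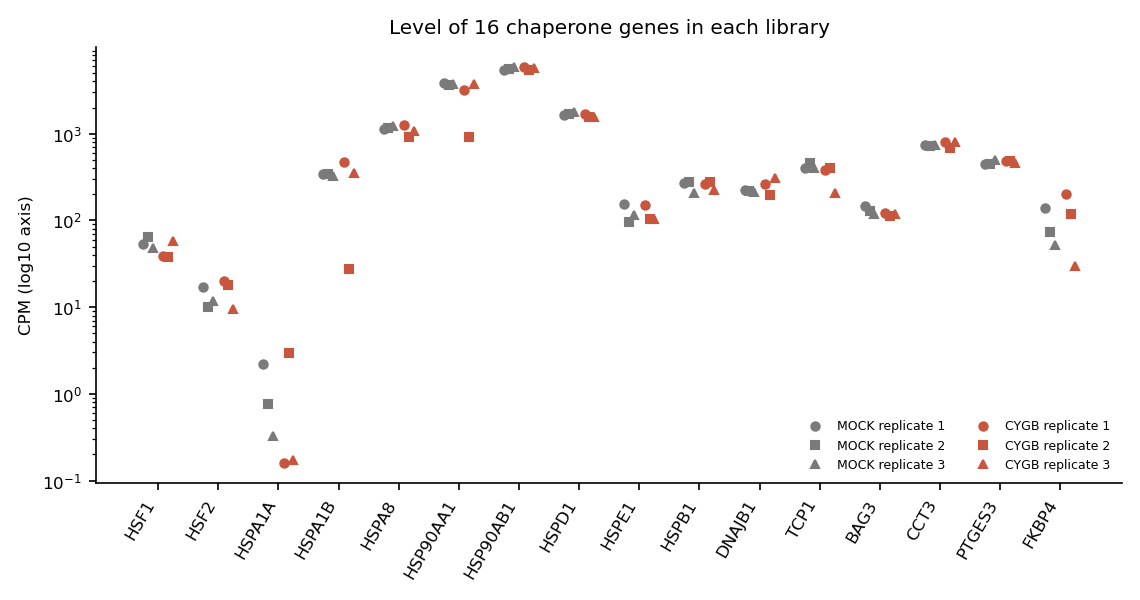
CPM of 16 chaperone genes on a log10 axis, with grey symbols for the 3 MOCK and red symbols for the 3 CYGB libraries. The symbol shape gives the replicate number. CYGB replicate 2 stands apart for HSPA1B (27.7 CPM) and HSP90AA1 (922 CPM), and CYGB replicate 3 for TCP1 (205 CPM).

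HSP90AA1, the stress-inducible cytosolic HSP90 (chromosome 14, 102080738 to 102139699, minus strand), had 3886, 3689 and 3724 CPM in MOCK. It had 3174, 922 and 3710 CPM in CYGB cells. CYGB replicate 3 lay within the MOCK range, CYGB replicate 1 lay somewhat below it, and CYGB replicate 2 lay far below. HSP90AA1 had a log2 fold change of -0.53 (SE 0.47, edgeR adjusted p = 0.963), and -0.13 without CYGB replicate 2 (edgeR unadjusted p = 0.192). HSP90AB1, the constitutive form, had 5444, 5634 and 5906 CPM in MOCK and 5870, 5425 and 5793 CPM in CYGB cells. Its log2 fold change was 0.01 with a 95% interval from -0.14 to 0.16. TRAP1, the mitochondrial HSP90, had a log2 fold change of 0.09 (95% interval -0.43 to 0.62) and its libraries varied from 191 to 318 CPM within MOCK alone. Per length, in TPM (counts scaled to transcript length and library size), the level of HSP90AB1 was 1.77 to 2.45 times that of HSP90AA1 in 5 libraries, and 5.21 times in CYGB replicate 2.

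HSPD1 (HSP60) and HSPE1 (HSP10) form the folding chamber of the mitochondrial matrix. HSPD1 had 1645, 1694 and 1799 CPM in MOCK and 1677, 1575 and 1550.0 CPM in CYGB cells, where CYGB replicate 1 kept the groups from separating. On the log2 scale it differed by -0.10 (SE 0.06, edgeR adjusted p = 0.963). HSPE1 had 153, 95.5 and 116 CPM in MOCK and 149, 103 and 105 CPM in CYGB cells, with a log2 fold change of -0.03 (SE 0.22, edgeR adjusted p = 0.998). Replicate 1 of either group was the highest library for HSPE1. In TPM, HSPD1 exceeded HSPE1 by 4.29 to 6.95 times, and the range of the CYGB libraries (4.47 to 6.10) lay within that of MOCK. HSPE1 is annotated within the span of HSPD1 on the opposite strand, and whether the counting used strand is not given in the sources used here.

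HSPB1 (HSP27), a small heat shock protein that holds unfolded proteins in solution, had 271, 274 and 205 CPM in MOCK and 262, 281 and 225 CPM in CYGB cells. In each group replicate 3 was the lowest library. HSPB1 had a log2 fold change of 0.03 (SE 0.14, edgeR adjusted p = 0.996). HSPB11 bears the name of a small heat shock protein but is better known as a subunit of the intraflagellar transport complex. It had 46.7, 42.0 and 42.8 CPM in MOCK and 42.6, 37.0 and 34.7 CPM in CYGB cells, and only CYGB replicate 1 reached the MOCK range. Its log2 fold change was -0.20 (SE 0.12, edgeR unadjusted p = 0.134), and -0.29 without CYGB replicate 1 (edgeR unadjusted p = 0.0484, adjusted p = 0.962).

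Of the 7 J-domain proteins, 6 had a log2 fold change above 0 (48.8% of all genes did) and 1 below, and 0 of the 7 passed a test. Further J-domain genes beyond the 42 lay on both sides of 0. DNAJB1 (HSP40), the inducible partner of HSP70, had 223, 221 and 213 CPM in MOCK and 263, 198 and 309 CPM in CYGB cells. The MOCK libraries lay close together, and the CYGB libraries lay on both sides of them. DNAJB1 had a log2 fold change of 0.23 (SE 0.16, edgeR adjusted p = 0.963), and 0.38 without CYGB replicate 2 (edgeR unadjusted p = 0.0115, adjusted p = 0.936). The log2 fold changes of DNAJA1 and DNAJA2, general partners of HSC70, were 0.11 and 0.08. That of the mitochondrial DNAJA3 was 0.24, and those of DNAJB4 and of the HSP70 and HSP90 binding DNAJC7 were 0.03 and 0.08. DNAJB6, which suppresses aggregation of polyglutamine proteins, had -0.20 (95% interval -0.71 to 0.31).

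TRiC is a double ring of paralogous subunits that folds actin and tubulin, and 7 of its genes are among the 42. Apart from TCP1 their fold changes per gene lay close to 0. CCT3, the most abundant, had 733, 726 and 733 CPM in MOCK and 802, 682 and 802 CPM in CYGB cells, with a log2 fold change of 0.06 (SE 0.08, edgeR adjusted p = 0.967), compared with 0.52 for its most abundant transcript alone (edgeR unadjusted p = 0.0850, adjusted p = 1.00). CCT2, CCT4, CCT5, CCT7 and CCT8 had log2 fold changes between -0.03 and 0.08, with every 95% interval inside -0.21 to 0.30.

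TCP1, the subunit that gives the complex its name (chromosome 6, 159778498 to 159789749, minus strand), departed from the rest. It had 402, 461 and 407 CPM in MOCK and 379, 399 and 205 CPM in CYGB cells. All CYGB libraries lay below all MOCK libraries, but CYGB replicates 1 and 2 lay close to the lowest MOCK library and CYGB replicate 3 far below. TCP1 was the only 1 of the 42 genes (2.38%) whose groups did not overlap, against 11% of all genes tested, or 5.31% that did not overlap and were lower in CYGB cells. The log2 fold change was -0.37 (SE 0.25, edgeR unadjusted p = 0.19, adjusted p = 0.963). Without CYGB replicate 3 it was -0.12 (edgeR unadjusted p = 0.236). In TPM, the highest TRiC subunit exceeded the lowest by 2.27 to 2.61 times in 5 libraries and by 3.79 times in CYGB replicate 3.

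The BAG proteins release HSP70 from its substrate. BAG3, which links HSP70 to selective autophagy, had 146, 129 and 117 CPM in MOCK and 121, 113 and 119 CPM in CYGB cells. Its groups overlapped, with a log2 fold change of -0.15 (SE 0.10, edgeR adjusted p = 0.963). BAG1 and BAG2 had log2 fold changes of 0.08 and -0.10. BAG5 had 86.7, 93.1 and 86.5 CPM in MOCK and 95.1, 63.9 and 71.1 CPM in CYGB cells, and its log2 fold change was -0.21. Without CYGB replicate 1 it was -0.40 (edgeR unadjusted p = 0.00956, adjusted p = 0.962), a ratio that does not reach the 0.5 of the methods.

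PTGES3 (p23), which stabilises the closed form of HSP90, was the most abundant of the 6 cochaperones. It had 449, 451 and 504 CPM in MOCK and 487, 486 and 465 CPM in CYGB cells, with a log2 fold change of 0.04 (SE 0.07, edgeR adjusted p = 0.981). STIP1 (HOP), which bridges HSP70 and HSP90, had a log2 fold change of 0.09, AHSA1, the activator of the HSP90 ATPase, 0.08, and CDC37, which brings kinases to HSP90, 0.07. STUB1 (CHIP), the ubiquitin ligase of chaperone clients, had -0.01 (95% interval -0.36 to 0.33). FKBP4, an immunophilin of steroid receptor complexes, had 140, 73.6 and 51.4 CPM in MOCK and 202, 118 and 29.5 CPM in CYGB cells. Both groups ran over more than a 2-fold range, and its log2 fold change of 0.40 had a 95% interval from -1.31 to 2.11. With 1 library left out it ran from -0.26 (without CYGB replicate 1) to 0.90 (without MOCK replicate 1).

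Levels of different genes were compared per length in TPM. The order over the mean of the 6 libraries was led by HSP90AB1 (4296 TPM), HSP90AA1 (1937 TPM), HSPD1 (1383 TPM) and HSPA8 (1305 TPM). CCT3 (743 TPM), CCT7 (684 TPM), CCT8 (552 TPM) and PTGES3 (504 TPM) followed, and the lowest were HSF2 (11.1 TPM) and HSPA1A (0.868 TPM). The constitutive HSPA8 and the inducible HSP90AA1, which differ in their known response to stress, thus both ranked among the first 4 genes. The inducible HSPA1B (238 TPM), DNAJB1 (209 TPM) and HSPA1A ranked below these. TPM rests on the division of counts among transcripts of unequal length.

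**Figure D3:**
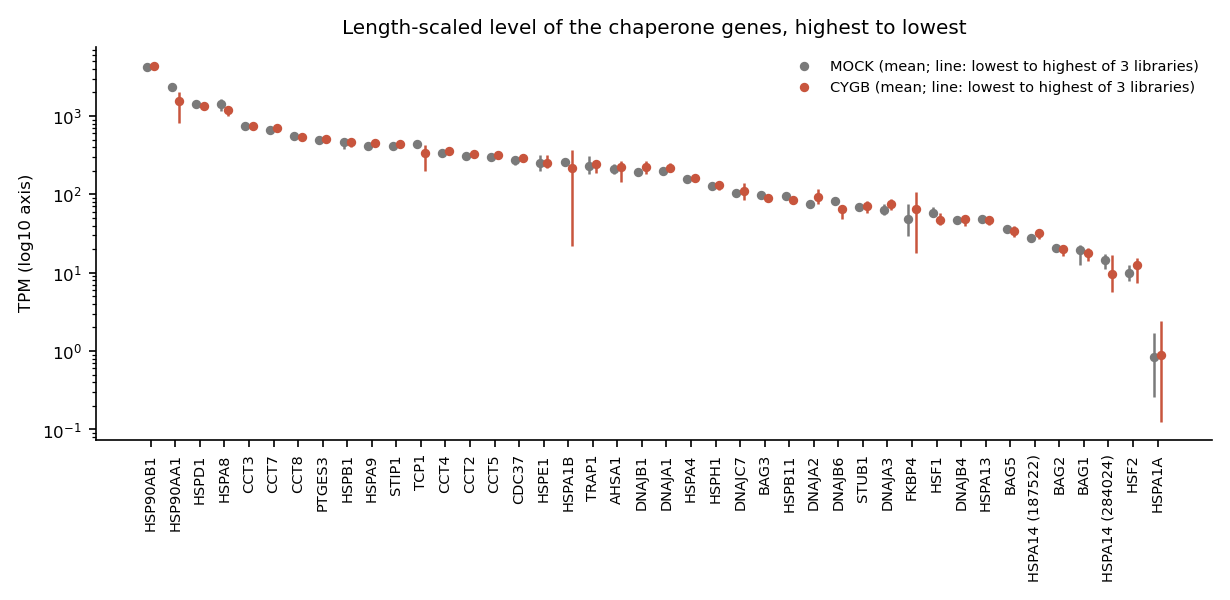
Level of each chaperone gene in TPM on a log10 axis, ordered by the mean of the 6 libraries, with points for the group means and lines from the lowest to the highest of 3 libraries. Group means differ by less than 1.5 times for 41 of the 42 genes, and the longest CYGB lines are those of HSPA1A, HSPA1B, FKBP4, HSPA14 (ENSG00000284024) and HSP90AA1.

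Across all 6 libraries, the highest library was less than 1.5 times the lowest for 26 of the 42 genes. The share of all genes was not counted, and the chaperones are more abundant (median of 228 CPM, against 9.78 CPM). The ratio was over 2 for 7, namely HSF2, HSPA1A, HSPA1B, HSPA14 (ENSG00000284024), HSP90AA1, TCP1 and FKBP4. Among genes of at least 10 CPM, a single library below 0.5 times the lowest of the other 5 was found for 2 of 41 chaperones (4.88%), HSPA1B and HSP90AA1. This rule was chosen after the values were seen, and it was met by 5.25% of all genes of that level. Both were low in CYGB replicate 2, which accounted for 86 of such genes, where the 6 libraries accounted for 76 to 100 each. Whether the missing counts lay in transcripts without a gene, which were left out, was not tested. CYGB replicates 2 and 3 were each the lowest library for 12 of the 42 genes, MOCK replicate 1 for 11, and CYGB replicate 1 the highest for 17.

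In some chaperone genes single transcripts varied between libraries more than their sum, whereas in others, such as BAG3, DNAJA1 and DNAJB1, nearly all counts lay in 1 transcript. Of 353 listed chaperone transcripts 255 were tested, and 1 of them (0.392%), higher in CYGB cells, passed the threshold of the methods, against 1.02% of all transcripts (0.54% higher). An unadjusted p under 0.05 was reached by 5 (1.96%), against 3.78% of all transcripts, and an adjusted p under 0.05 by 0 (0.015%). The transcript past the threshold was ENST00000445922 of BAG5, with 0, 1 and 0 counts in MOCK libraries, compared with 341, 2957 and 2394 in CYGB cells (edgeR unadjusted p = 0.000273, adjusted p = 0.175). The other long BAG5 transcript, ENST00000299204, had 4067, 4843 and 4396 counts in MOCK libraries, compared with 4445, 24 and 1324 in CYGB cells. The share of BAG5 counts in ENST00000445922 was thus 7.10%, 91.1% and 64.1% in the CYGB libraries, while BAG5 as a whole did not pass the test. Only 0.0213% of the 150-base windows of ENST00000299204 and 3.56% of those of ENST00000445922 are absent from the other BAG5 transcripts. ENST00000445922 passed the threshold in each fit that left out 1 library, with an edgeR quasi-likelihood adjusted p from 0.196 to 0.460. By the same test with the replicate block the adjusted p was 0.995. It was 1.06e-11 with DESeq2 and 3.83e-09 with edgeR's exact test, so it depended strongly on the test.

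The transcript with most counts differed between the group sums for DNAJC7 and HSPA14 (ENSG00000284024). For DNAJC7, ENST00000426588 led in MOCK with 1881, 1221 and 2380 counts and had 523, 42 and 520 counts in CYGB cells (edgeR unadjusted p = 0.0447, adjusted p = 1.00). ENST00000316603 had 504, 1306 and 1171 counts in MOCK libraries, compared with 2228, 0 and 2222 in CYGB cells. In CYGB replicate 2, where both were nearly absent, ENST00000588814 had 3805 counts, against 0 to 128 counts in the other libraries. ENST00000426588 has no 150-base window of its own, and the DNAJC7 gene had a log2 fold change of 0.08. For HSPA14, ENST00000437161 had 407, 914 and 945 counts in MOCK libraries, compared with 0, 2 and 863 in CYGB cells, while ENST00000640019 had 554 to 828 and 683 to 986 counts. The lower value of this identifier without CYGB replicate 3 thus lay mainly in ENST00000437161, of which 0.101% of windows are its own.

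The low HSP90AA1 count of CYGB replicate 2 lay in 1 of its 2 main transcripts. ENST00000334701 had 168074, 179358 and 175150 counts in MOCK libraries, compared with 157443, 667 and 165392 in CYGB cells. ENST00000216281, the transcript with the heat shock element in its exon, had 12722, 11265 and 11069 counts in MOCK libraries, compared with 1858, 41546 and 29003 in CYGB cells. It was thus highest in the library where ENST00000334701 was nearly absent, but its surplus there was smaller than the deficit of the other. HSPA8 transcript ENST00000534624 had 540, 289 and 190 counts in MOCK libraries, compared with 9587, 4656 and 269 in CYGB cells (edgeR unadjusted p = 0.0252, adjusted p = 1.00). It has no 150-base window of its own. Like ENST00000453788 and ENST00000527983, whose counts are not given here, it has a heat shock element in an exon. It passed the threshold of the methods by the exact test of edgeR (adjusted p = 0.280) and by DESeq2 (adjusted p = 0.0862). It also passed without CYGB replicate 3 (edgeR quasi-likelihood adjusted p = 0.338), the library whose 269 counts lay within the MOCK range. In HSF1 the leading transcript changed within groups, with ENST00000528838 at 1840, 2559 and 112 counts in MOCK libraries, compared with 1161, 1423 and 98 in CYGB cells, and ENST00000400780 high in replicate 3 of either group (1515 and 2178 counts). For TCP1, ENST00000392168 had 5450 counts in CYGB replicate 3 and 10108 to 19557 counts in the other libraries, and ENST00000321394 had 4689 counts there, within its range of 3107 to 8123. In all, 9 of the 42 genes were led by more than 1 transcript over the 6 libraries, and 3 have only 1 transcript. Neither was counted over all genes. Past the threshold were 3 chaperone transcripts without CYGB replicate 1 and 5 each without CYGB replicates 2 and 3. The share of all transcripts was not counted in those fits, and in the fit of all 6 libraries it was 1.02%.

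**Figure D4:**
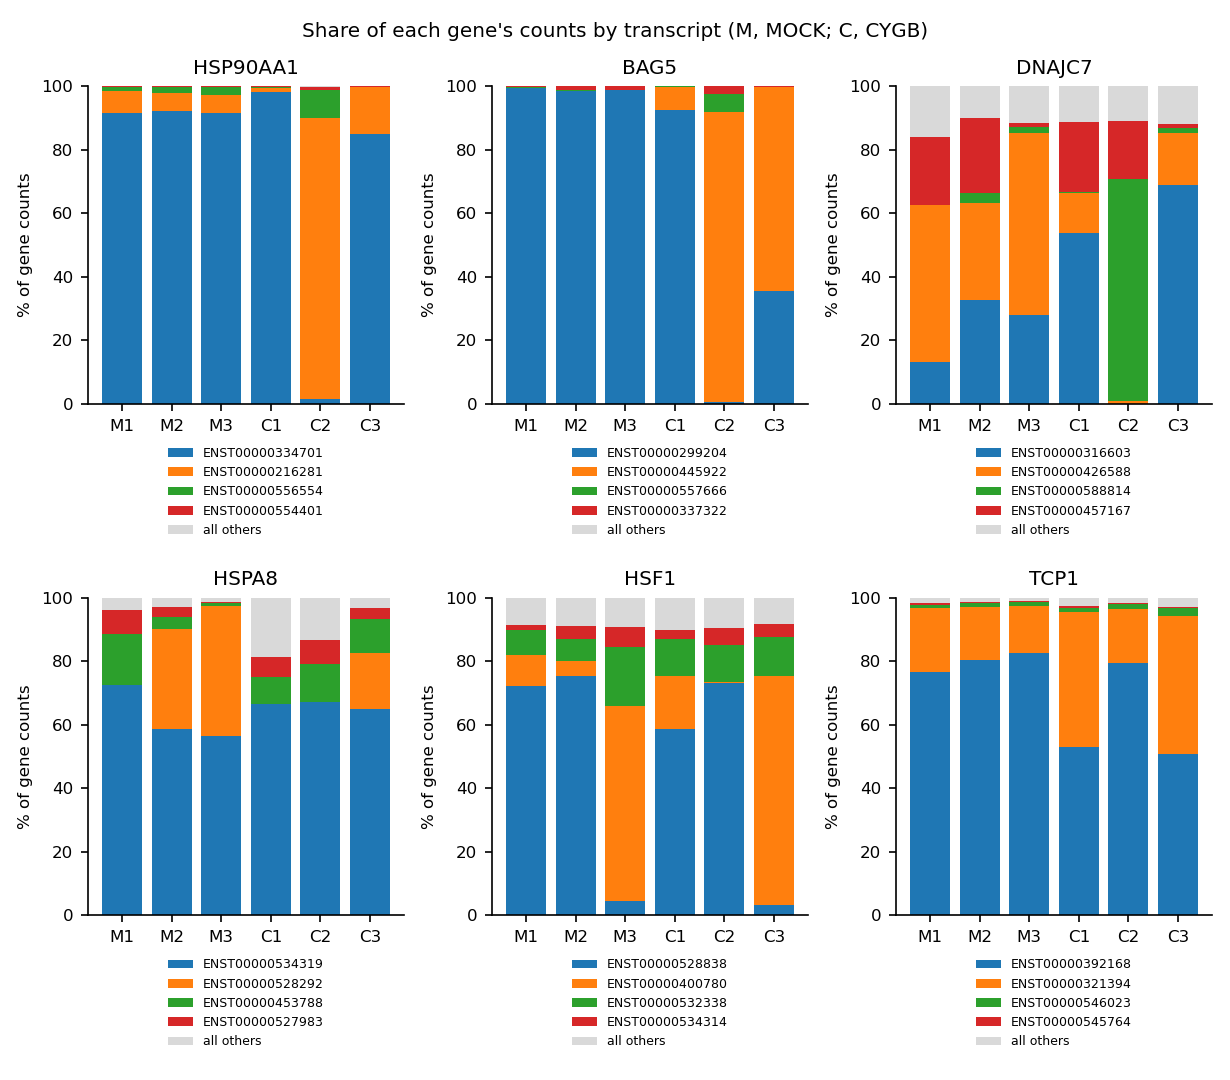
Share of a gene's counts held by its 4 most abundant transcripts and by all others, in percent, for HSP90AA1, BAG5, DNAJC7, HSPA8, HSF1 and TCP1 in MOCK (M) and CYGB (C) libraries. The make-up of CYGB replicate 2 differs from the rest in HSP90AA1 and DNAJC7, that of BAG5 differs between CYGB replicates 2 and 3 and the other 4 libraries, and that of HSF1 differs between replicate 3 and the other replicates in both groups.

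Beyond the 42 genes, 85 further chaperones, cochaperones and relatives were listed by family. Among them were other J-domain proteins (not the whole family), prefoldin, the mitochondrial proteases LONP1 and CLPP and small heat shock proteins. Of the 85, 77 were tested. The threshold of the methods was passed by 0 and an adjusted p under 0.05 was reached by 0, while 1 (1.30%) had an unadjusted p under 0.05. This was CCT6B, the testis form of a TRiC subunit, at 0.853 CPM in MOCK and 1.43 CPM in CYGB cells (log2 fold change 0.74, edgeR unadjusted p = 0.041, adjusted p = 0.963). The groups of 9 did not overlap (11.7%, against 11% of all genes), 4 higher and 5 lower in CYGB cells. The median log2 fold change was 0.02, with 45 above 0 and 32 below, where 48.8% of all genes were above 0. Without CYGB replicate 1 DNAJC5, a J-domain protein of secretory vesicles, passed the threshold and had an adjusted p of 0.0105. It had 6581, 6326 and 5813 counts in MOCK libraries, compared with 4911, 0 and 0 in CYGB cells, so that the remaining pair of CYGB libraries were those listed at 0. Whether DNAJC5 reads of those libraries were listed under transcripts without a gene, which were left out, was not tested.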

How the data were processed

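Total RNA of HCT116 cells was sequenced with paired-end reads of 150 bases. What the authors deposited is a table of unnormalized counts for every transcript. The submitters' processing notes name HISAT2, HISAT, DESeq2 and the build hg19 without versions. The counting tool and its use of strand are not given in the sources used here. Coordinates are given in GRCh38, because 151393 of the 151453 transcripts assigned to a gene were found in GENCODE 29, 99.5% of them at an identical position. The remaining 21225 transcripts name no gene and were left out, with 18.6 to 19.5% of a library's counts.

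Counts were summed per gene identifier, kept by filterByExpr (minimum count 10), scaled by TMM and tested by the quasi-likelihood test of edgeR 4.0.16 (limma 3.58.1, R 4.3.3) with Benjamini-Hochberg adjustment. The 3 CYGB libraries were compared with the 3 MOCK libraries, without a block. The steps were repeated per transcript. TPM was computed from the transcript lengths of GENCODE 29. No sample column was left out, and no 2 libraries matched within sampling noise (chi-square per gene of 102 or more). Total counts were 58138393 to 66035266 per library, and the common biological coefficient of variation, 36.6% for genes and 78.9% for transcripts, sets the precision.

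Members, gene lists and role classes were chosen with earlier results of these data known. Genes given with every library's value were 11 classical heat shock genes, any called or non-overlapping gene and the most abundant of each class, and a transcript was named when called or when it led 1 group only. Others, such as FKBP4, HSPB11, HSPA14, BAG5 and further transcripts, were added after their values were seen. Alternatives were DESeq2 1.42.0, edgeR's exact test, other size factors, other filters, the replicate number as a block, transcripts without a gene in library sizes, the most abundant transcript, summed HSPA1A and HSPA1B, and leaving out each library. Steps were tested on simulated data. Figures were drawn with matplotlib 3.10.9.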

Additional observations from a re-analysis of the deposited data

How the results depend on the processing

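The number of heat shock chaperone genes past the threshold of the methods was 0 and stayed at 0 under DESeq2, edgeR's exact test, other size factors, other filters, the replicate block and the library sizes with all transcripts. It was 0 to 1 with 1 library left out. Those with an adjusted p under 0.05 numbered 0 throughout, and those with an unadjusted p under 0.05 numbered 0, or 0 to 3 with 1 library left out. The share of all genes with an unadjusted p under 0.05 was not counted with 1 library left out. Chaperone transcripts past the threshold numbered 1, but 2 with DESeq2, 2 by the exact test of edgeR (ENST00000534624 of HSPA8 in both), 2 with the replicate block (ENST00000459889 of DNAJB6) and 1 to 5 with 1 library left out. Those added without CYGB replicate 2 include ENST00000544079 of CCT4, with 3762, 4954 and 3809 counts in MOCK libraries, compared with 0, 5130 and 0 in CYGB cells. The share of all transcripts past the threshold was counted only in the quasi-likelihood fit of all 6 libraries without a block (1.02%). The other chaperones past the threshold numbered 0, and 0 to 1 with 1 library left out (DNAJC5 without CYGB replicate 1).

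Over all genes, 113 passed the threshold. DESeq2 gave 263, the exact test of edgeR 256, a minimum mean of 50 counts 62 (fewer genes tested) and leaving out 1 library 124 to 177, highest without MOCK replicate 3. An adjusted p under 0.05 was reached by 11. DESeq2 gave 108, the exact test of edgeR 64 and leaving out 1 library 6 to 14 (6 without MOCK replicate 1, 7 without CYGB replicate 3). With the replicate block it was reached by 0 in edgeR's quasi-likelihood test, where 764 had an unadjusted p under 0.05. Over all genes, deviations from the group mean correlated at 0.0294, 0.00521 and 0.0310 between MOCK and CYGB libraries of the same replicate number. Such a correlation cannot decide whether samples were paired, because a pairing could show in some genes only.

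With 1 library left out, the sign of the log2 fold change turned for 20 of the 42 genes (not counted over all genes), among them FKBP4 (-0.26 to 0.90). Of the 15 genes named by rule it turned for HSPA1A (-0.78 with the replicate block, -2.72 to 1.01 with 1 library left out), HSPA1B (-0.80 to 0.29), HSP90AB1 (-0.020 to 0.040), HSPE1 (-0.23 to 0.17) and HSPB1 (-0.094 to 0.12). By its most abundant transcript HSPD1 was at 0.029 and HSPB1 at -0.075, compared with -0.10 and 0.03 for the genes. Without a change of sign, the same choice moved HSF1 from -0.30 to -0.73, TCP1 from -0.37 to -0.69, HSPA8 from -0.11 to -0.0090, HSP90AA1 from -0.53 to -0.71, CCT3 from 0.06 to 0.52 and PTGES3 from 0.04 to 0.14, and none of these passed the test. What caused these differences was not tested.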

Other observations

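Of the 9 chaperone genes led by more than 1 transcript over the 6 libraries, those not described above are DNAJA2, DNAJA3, DNAJB6 and TRAP1, and their transcripts were chosen after the values were seen. DNAJA2, a partner of HSC70, had 98.2 to 99.0% of its counts in ENST00000317089 in 5 libraries and 42.8% in CYGB replicate 2. In that library ENST00000563158, annotated as a target of nonsense-mediated decay, had 3656 counts, compared with 0 to 6 elsewhere, and it did not pass the filter on low counts. The DNAJA2 gene count of that library, 6527, lay among the 5565 to 6885 of the others. DNAJB6 transcript ENST00000262177 had 1892, 3191 and 3695 counts in MOCK libraries, compared with 2387, 958 and 1191 in CYGB cells, and ENST00000459889 had 0, 381 and 152 counts, compared with 0, 3390 and 1111. In TRAP1, ENST00000575671 held 97.4% of the counts of MOCK replicate 3 and 25.9% of those of MOCK replicate 2, where ENST00000538171 held 45.2%. A change of the leading transcript thus occurred within the MOCK group as well as between groups.

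GRPEL2, a nucleotide exchange factor of the mitochondrial HSP70, had 23.3, 26.0 and 24.6 CPM in MOCK and 24.2, 86.0 and 27.2 CPM in CYGB cells. CYGB replicate 2 thus lay far above the other libraries, which were close together. Its log2 fold change was 0.89 (edgeR adjusted p = 0.963), and the gene was picked after its values were seen.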
